A study of Homo sapiens with 8 samples.

Results

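The genes described are 10 human helicase genes whose proteins unfold G-quadruplexes (G4s): DHX36, DHX9, DDX5, BLM, WRN, BRIP1, RTEL1, DDX11, ERCC2 and PIF1. They were taken from a fixed list by name, 10 of 20163 protein-coding genes in the annotation, by a rule that uses no measured value, although the list was drawn up with earlier results of these data known. Every deposited interval in the body of each gene, or in the 1 kb upstream of any of its annotated transcription start sites (TSSs), was collected. All 10 genes were found in the annotation, on 8 chromosomes, with gene bodies from 9.95 kb (DDX5) to 184 kb (BRIP1).

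G4 ChIP-seq had been carried out in untreated cultures of 2 human lines. K562 cells derive from a chronic myelogenous leukemia. HepG2 cells derive from a hepatocellular carcinoma. Sonicated, cross-linked chromatin was precipitated with BG4, an antibody fragment that binds folded G4s. The labels name 3 G4 ChIP libraries and 1 input library for each line. Each line is represented by 1 cultured line, so a difference between K562 and HepG2 is a difference between these cultures and not between blood and liver.

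For each line the authors deposited a high-confidence list and a lower-confidence list. The former holds stretches called as a peak in at least 5 of 8 replicates in K562 and 6 of 9 in HepG2, and the latter those called in at least 2 replicates. These replicates came from 3 independent experiments per line with technical replicates in each, so a threshold counts replicates that share an experiment. At high confidence there are 9205 K562 and 8805 HepG2 intervals. At lower confidence there are 19249 and 28387, so the looser HepG2 list has 1.47 times as many intervals as the K562 one. The lists give positions only, with no peak height and no replicate identity. The sequencing depth behind an interval is unknown. Replicate spread could not be computed, and differences between the lines could not be tested. Absence from a list means that the replicate threshold was not met.

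A G4 is a stack of guanine tetrads that can form where a DNA or RNA strand carries several runs of guanine with short loops between them. Folded G4s can block polymerases, and helicases that load on single-stranded nucleic acid pull them apart. DHX36 and DHX9 are DEAH-box proteins and DDX5 is a DEAD-box protein. BLM and WRN belong to the RecQ family, and BRIP1, RTEL1, DDX11 and ERCC2 share an iron-sulfur cluster fold. PIF1 gives its name to a family of its own.

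Of the 10 genes, 8 had a K562 high-confidence interval within 1 kb upstream of a TSS, beside 34.6% of all protein-coding genes. In HepG2 the count was 7 of 10, beside 29.6% of all genes. The 6 genes DDX5, BLM, WRN, DDX11, ERCC2 and PIF1 had one in both lines, which 23.4% of all genes did. DHX9 and RTEL1 were high-confidence in K562 and only lower-confidence in HepG2, a state shared by 7.99% of genes. BRIP1 was high-confidence in HepG2 with no K562 interval in either list, as were 2.26% of genes. DHX36 had no upstream interval in any of the 4 lists, and neither did 43.5% of genes. The members thus covered each of these states, with most in the state of a promoter interval in both lines. The rule searches upstream of every annotated TSS, so a gene with more TSSs has more windows. The members have from 6 (WRN) to 30 (DDX5) TSSs. The shares of all genes were not adjusted for TSS number, and its part in these counts was not tested.

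Widening the search to the gene bodies added no gene. A high-confidence interval anywhere in the locus was found for 8 of 10 genes in K562, beside 37.9% of all genes, and for 7 of 10 in HepG2, beside 34.5%. Each of these genes held exactly 1 high-confidence interval per line, 15 in all, although the 10 loci span 647 kb. All 15 overlapped the 1 kb upstream of a TSS. Their centres lay between -128 and 44 bp of the nearest TSS of the gene, where negative values are upstream. From the TSS of the representative transcript they lay between -166 bp (DDX5, HepG2) and 354 bp (DDX11, K562). The genes have from 6 (WRN) to 30 (DDX5) annotated TSSs, and how far their number shortens the first distances was not tested. High-confidence intervals covered 0.189% of the loci in K562 and 0.168% in HepG2.

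**Figure D1:**
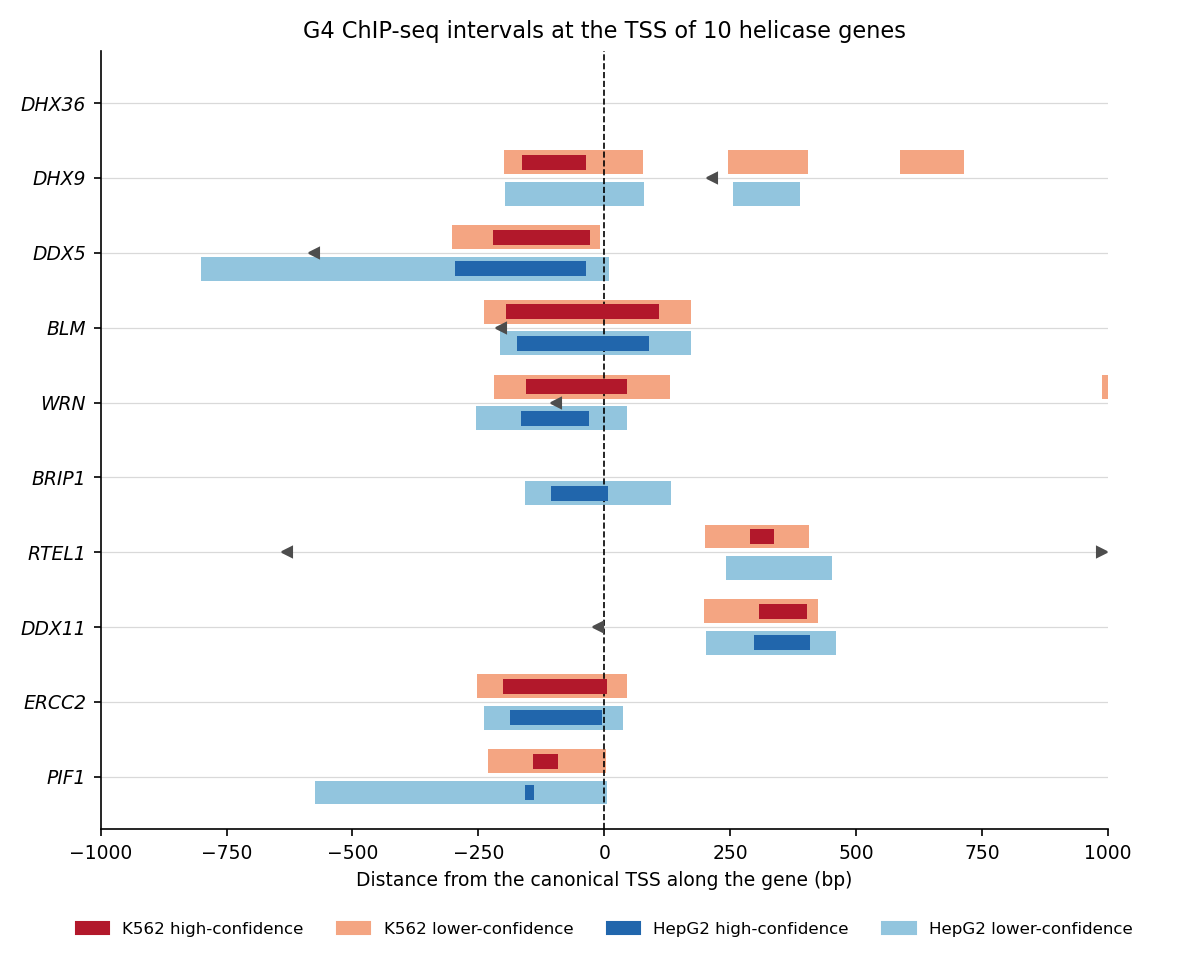
Position of every interval within 1 kb of the canonical TSS (dashed line) of the 10 genes, in bp along the direction of transcription. Dark bars are high-confidence and pale bars lower-confidence intervals, K562 above and HepG2 below each line, and triangles are the nearest TSSs of neighbouring genes. DHX36 is empty, BRIP1 has HepG2 bars only, and the bars of RTEL1 and DDX11 lie to the right of the dashed line.

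The canonical TSS is the start of the transcript that the annotation marks as representative. DHX36, a DEAH-box helicase with high affinity for both DNA and RNA G4s, lies on the minus strand of chromosome 3 (chr3:153990335-154042276, GRCh37). It was the only member without an interval in any list, in its body or upstream of any of its 13 TSSs. The nearest interval, in the K562 lower-confidence list, lay 1050562 bp from the locus, and the nearest in the other 3 lists lay at least 1110268 bp away. The stretch free of intervals ran for 2492 kb and held the canonical TSSs of 5 protein-coding genes, DHX36 included. At least as large a distance to any interval was found for 332 protein-coding genes (1.65%).

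The DHX36 promoter was not poor in G and C. The stretch of 301 bp centred on its canonical TSS were 62.8% GC, and 40.5% of protein-coding genes were as low or lower, against a median of 65.8%. A G4 motif was defined by 4 G-runs, each of 3 or more bases, separated by loops 1 to 7 bases long, and was sought on both strands without overlapping matches on a strand. None was found in its 1 kb upstream or anywhere in the DHX36 locus. The 250 bases before its outermost TSS are shown on the gene's strand, because they hold runs of 3 or more G and of 3 or more C, 5 of each, in capitals, that lie too far apart to make a motif (chr3:154042277-154042526, minus strand, GRCh37).
DHX36 upstream: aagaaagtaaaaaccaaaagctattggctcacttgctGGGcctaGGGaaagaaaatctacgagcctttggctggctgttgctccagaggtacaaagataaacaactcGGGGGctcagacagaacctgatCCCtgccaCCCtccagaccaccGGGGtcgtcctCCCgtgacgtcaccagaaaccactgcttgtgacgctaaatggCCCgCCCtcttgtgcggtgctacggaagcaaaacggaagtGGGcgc

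DHX9, also called RNA helicase A, unwinds RNA, RNA-DNA hybrids and G4s (chr1:182808482-182857117, plus strand). In K562 its high-confidence interval covered 126 bp from -163 to -38 of the canonical TSS (chr1:182808319-182808444), outside the transcribed exons, with a GC content of 73.8%. HepG2 had no high-confidence interval there, and the nearest one lay 446 kb from the locus. The lower-confidence intervals of the lines were nonetheless almost the same stretch. K562 had 277 bp and HepG2 276 bp, with 275 bp in common. The lines therefore differed at this promoter in which threshold was met, and by 2 bp at one end and 1 bp at the other in position.

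The K562 interval of DHX9 is printed whole on the coding strand, with runs of 3 or more C in capitals, because its 10 such runs and 0 runs of G place all G-runs on the template strand. The template-strand motif at -162 to -139 is printed below it with its G-runs in capitals (chr1:182808320-182808343, minus strand, GRCh37).
DHX9 K562 interval: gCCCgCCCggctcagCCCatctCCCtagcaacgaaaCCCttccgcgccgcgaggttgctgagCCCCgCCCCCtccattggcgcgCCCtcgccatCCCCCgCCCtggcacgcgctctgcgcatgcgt
DHX9 motif: GGGagatGGGctgagccGGGcGGG

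Both lines had a further DHX9 lower-confidence interval in an intron near an internal TSS, of 158 bp in K562 and 133 bp in HepG2. The K562 one contained the HepG2 one. K562 alone had one more of 128 bp, centred 650 bp past the canonical TSS. A noncoding gene on the other strand, DHX9-AS1, starts 214 bp past that TSS, inside DHX9. A stretch of 106 bp in this region matched chromosome 13 beside the processed pseudogene DHX9P1 at 83.0% identity, and no interval of any list lay on that copy.

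DDX5, a DEAD-box helicase that also acts as a cofactor in transcription and splicing, is a short gene on the minus strand (chr17:62494372-62504317). Its high-confidence interval was 191 bp in K562 (chr17:62502437-62502627) and 260 bp in HepG2 (chr17:62502444-62502703). They shared 184 bp, which was 96.3% of the K562 and 70.8% of the HepG2 interval. Their ends nearest to the canonical TSS were 7 bp apart, and the HepG2 interval reached 76 bp farther upstream.

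Those extra bases decided whether an interval of DDX5 held a motif. The coding-strand motif from -292 to -276 (chr17:62502683-62502699, minus strand) lay inside the HepG2 interval and beyond the end of the K562 one, although the K562 lower-confidence interval of 294 bp included it. Within the stretch shared by the lines stood a motif of 4 runs of at least 2 G with the same loops (chr17:62502445-62502458, minus strand). Both are shown with the runs that count in capitals, the first because only the HepG2 high-confidence interval held it and the second because both did.
DDX5 motif in HepG2: GGGtGGGcGGGGctGGG
DDX5 2-G motif in both: GGcgtaGGaGGcGG

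The HepG2 lower-confidence interval of DDX5 was 810 bp wide, the widest of any member, and ran from -800 to 9. It extended over the start of the divergent protein-coding gene CEP95, whose nearest TSS lies at -576. The high-confidence stretch made up 32.1% of it, against 65.0% of the K562 lower-confidence interval.

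BLM, the RecQ helicase mutated in Bloom syndrome, which dissolves recombination intermediates, spans chr15:91260577-91359396 on the plus strand. It had the widest high-confidence interval of the set, 304 bp in K562 (chr15:91260381-91260684) and 262 bp in HepG2 (chr15:91260404-91260665). The HepG2 interval lay wholly inside the K562 one. Both crossed the canonical TSS, from -196 to 107 in K562 and from -173 to 88 in HepG2. As narrow or narrower were 81.6% of K562 and 77.3% of HepG2 high-confidence intervals. A divergent noncoding gene, CRTC3-AS1, starts at -205.

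Neither BLM interval held a motif of 3-G runs, at a GC content of 65.5% and 65.6%. The only such motif in the 1 kb upstream lay from -655 to -641, outside all 4 lists. Inside both intervals, on the coding strand just after the TSS, were a pair of 2-G motifs. The 3-G motif without an interval and the 2-G motifs within one are set side by side (chr15:91259922-91259936, chr15:91260595-91260610 and chr15:91260615-91260636, plus strand).
BLM motif outside: GGGaGGGcGGGaGGG
BLM 2-G motif inside, 1: GGGcttGGcgcGGcGG
BLM 2-G motif inside, 2: GGttgcGGcgcGGGaagtttGG

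WRN, the RecQ helicase and exonuclease mutated in Werner syndrome, spans chr8:30891304-31033654 on the plus strand. Its high-confidence interval was 201 bp in K562 (chr8:30891170-30891370) and 135 bp in HepG2 (chr8:30891160-30891294). They shared 125 bp, or 62.2% of the K562 and 92.6% of the HepG2 interval. The K562 interval crossed the canonical TSS, from -156 to 44, and the HepG2 interval ended at -32.

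WRN was the member with the most motifs near its start. The 1 kb upstream of its canonical TSS held 5, and the intervals of both lines enclosed the same 2, at -144 to -118 and -87 to -66, both on the coding strand. The intervals had the highest GC content of the 15, 76.1% in K562 and 78.5% in HepG2. The remaining 3 motifs, from -998 to -456, lay in no interval. The divergent protein-coding gene PURG starts at -95, inside the high-confidence interval of both lines. The centre of the HepG2 interval lay 4 bp from a PURG TSS and 77 bp from the nearest WRN TSS. The centre of the K562 interval was nearest to a WRN TSS, at 34 bp. The intervals of both lines can be assigned to either gene. K562 had a second, lower-confidence WRN interval of 81 bp in an intron, at 39.5% GC and without any motif.

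The 2 RecQ genes of the set thus carried a high-confidence promoter interval in both lines, WRN with complete motifs under it and BLM without one.

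BRIP1, also called FANCJ, a BRCA1 partner and Fanconi anemia helicase, is the longest member (chr17:59756500-59940920, minus strand). Its only high-confidence interval was in HepG2, 114 bp from -106 to 7 of the canonical TSS (chr17:59940882-59940995), inside a lower-confidence interval of 290 bp. No K562 interval of either list lay in the 184 kb gene or upstream of any of its 21 TSSs, and the nearest one was 201 kb away. BRIP1 was the only member present in 1 line alone.

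The HepG2 interval of BRIP1 held the only motif in the 1 kb upstream, on the coding strand from -33 to -5 (chr17:59940894-59940922, minus strand). It is shown because it lies under the only high-confidence interval of the set without a counterpart in either list of the other line. The letters are those of the reference genome. Whether K562 cells carry a different number of copies or a different sequence at this locus was not measured.
BRIP1 motif: GGGctattGGGcgctGGGagtcgaGGGGG

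RTEL1, the regulator of telomere elongation, which disassembles telomeric loops and G4s, spans chr20:62289163-62327606 on the plus strand. Its K562 high-confidence interval was only 48 bp wide (chr20:62289954-62290001), and 5.13% of K562 high-confidence intervals were as narrow. It lay from 289 to 336 bp past the canonical TSS, in a UTR exon, with its centre 4 bp from another annotated TSS. It held neither a 3-G nor a 2-G motif. In HepG2 the nearest high-confidence interval was 14.6 kb from the locus. The divergent protein-coding gene STMN3 starts at -630.

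As at DHX9, the lower-confidence intervals at the start of RTEL1 overlapped between the lines. K562 had 206 bp and HepG2 211 bp, with 164 bp shared, and the K562 high-confidence stretch was 23.3% of its own lower-confidence interval. The only motif in the 1 kb upstream of the canonical TSS lay from -605 to -576, outside all lists, on the coding strand (chr20:62289060-62289089).
RTEL1 upstream motif: GGGGccttctGGGGccttctGGGGcatGGG

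RTEL1 stood apart in its gene body. HepG2 had 24 lower-confidence intervals in the locus and K562 had 2, while every other member had at most 2 in HepG2. Of the HepG2 ones 21 lay over 20 kb past the canonical TSS, after a stretch without intervals from 4.71 to 21.9 kb. Their centres were in introns for 16, in coding exons for 6 and in UTR exons for 2. Their median width was 124 bp, and together they covered 8.30% of the locus, against 1.03% in K562. Both K562 intervals had a HepG2 partner, the second one in a coding exon centred 32631 bp past the TSS. None of the 24 HepG2 stretches reached high confidence.

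**Figure D2:**
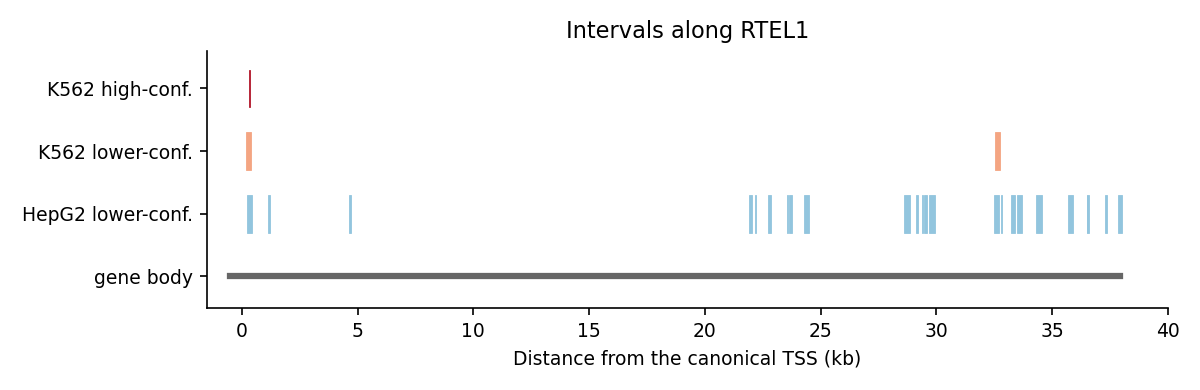
Intervals of RTEL1 against distance from its canonical TSS in kb, in 1 row per list, with the gene body below. No HepG2 high-confidence interval was listed. The HepG2 row holds 24 intervals, 21 of them past 20 kb, and the K562 lower-confidence row holds 2.

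RTEL1 holds 31 motifs, of which 2 were enclosed by HepG2 lower-confidence intervals and none by a K562 interval. The other 22 HepG2 intervals of the gene held no complete motif.

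The higher HepG2 count extended beyond RTEL1. In the 500 kb on each side of the locus HepG2 had 363 and K562 had 62 lower-confidence intervals, a ratio of 5.85. The ratio was 3.76 over chromosome 20 (1893 and 503) and 1.47 over the whole lists. Per 10 kb, HepG2 had 6.08 in the locus and 3.63 in the flanks, and K562 had 0.507 and 0.620. At least 24 such intervals were found for 23 of 20163 protein-coding genes, with no allowance for gene length, and 8 of these are on chromosome 20. Both counts include RTEL1 and the readthrough gene RTEL1-TNFRSF6B (26 intervals), which overlap, so intervals they share were counted for each. Of the 24 intervals 11 were nearer to a TSS of the readthrough gene RTEL1-TNFRSF6B or of TNFRSF6B, which starts just past RTEL1, than to one of RTEL1. The part of the chromosome in the count at RTEL1 was not tested.

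DDX11, a helicase needed for sister chromatid cohesion, spans chr12:31226794-31257733 on the plus strand. Its high-confidence interval was 95 bp in K562 (chr12:31227101-31227195) and 112 bp in HepG2 (chr12:31227091-31227202), with the K562 interval wholly inside the HepG2 one. Like that of RTEL1 it lay downstream of the canonical TSS, from 307 to 401 in K562, with its centre in an intron and 6 bp from an internal TSS. A divergent noncoding gene, DDX11-AS1, starts at -13. HepG2 had a further lower-confidence interval of 97 bp in a coding exon near the end of the gene.

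No 3-G motif was present within 1 kb upstream of the canonical TSS of DDX11 or in its intervals. Both high-confidence intervals held the same 2-G motifs on the coding strand (chr12:31227108-31227126 and chr12:31227141-31227155), shown with runs of at least 2 G in capitals.
DDX11 2-G motif 1: GGGGacGGGtaGGcctaGG
DDX11 2-G motif 2: GGtGGaactGGGcGG

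This promoter has near copies elsewhere on chromosome 12, which bears on where reads could be placed. The 263 bp covered by the lower-confidence intervals of DDX11 aligned over 264 positions to the pseudogene DDX12B at 95.5% identity (chr12:9436459-9436722) and to the pseudogene DDX12P at 96.2% (chr12:9600348-9600611). No interval of any list lay on either copy. Reads of low mapping quality had been removed by the authors, and how many of the remaining reads came from a copy was not tested. Apart from this and the short stretch of DHX9, no promoter interval of a member had another match of 100 bp or more.

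ERCC2, also called XPD, is the helicase subunit of TFIIH that opens DNA in nucleotide excision repair. It spans chr19:45853095-45874176 on the minus strand. Its high-confidence interval was 205 bp in K562 (chr19:45873827-45874031) and 183 bp in HepG2 (chr19:45873837-45874019), the latter wholly inside the former. This was the closest match between the lines among the 6 shared promoters, with 89.3% of the bases covered in either line covered in both. No other gene started within 1 kb of the canonical TSS.

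ERCC2 is rich in motifs away from its promoter and had none at it. Its locus held 20 motifs, 9.06 per 10 kb, the highest density of the set, and none of them lay wholly inside an interval of any list. The intervals held a single 2-G motif, on the template strand at -181 to -165, the only motif of either kind found there (chr19:45873996-45874012, plus strand).
ERCC2 2-G motif: GGGtgaGGcGGtgcGGG

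PIF1 encodes a helicase of nuclear and mitochondrial DNA that unwinds G4s during replication (chr15:65107831-65117867, minus strand). It was counted in both lines, but its high-confidence intervals hardly touched. K562 had 50 bp from -142 to -93 (chr15:65117939-65117988) and HepG2 had 18 bp from -158 to -141 (chr15:65117987-65118004). They shared 2 bp. Only 5.27% of K562 and 3.01% of HepG2 high-confidence intervals were as narrow.

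The PIF1 intervals are printed whole on the coding strand, with runs of 3 or more C in capitals, because neither holds a 2-G motif or a run of 3 G.
PIF1 K562 interval: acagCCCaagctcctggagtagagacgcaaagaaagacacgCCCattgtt
PIF1 HepG2 interval: ctagcaggcaattggtac

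Around these narrow stretches the lower-confidence intervals were much wider, 234 bp in K562 and 581 bp in HepG2, and the HepG2 one contained the K562 one. The high-confidence stretch was 21.4% of it in K562 and 3.10% in HepG2. Only the HepG2 lower-confidence interval reached a motif, on the coding strand from -475 to -455 (chr15:65118301-65118321, minus strand), so this motif was covered by a peak in at most 5 of the 9 replicates, which share 3 experiments. PIF1 also had the lowest GC content at its canonical TSS among the members, 51.8%, and 15.9% of protein-coding genes were as low. HepG2 had a second lower-confidence interval of 73 bp in a coding exon.
PIF1 motif: GGGGGcGGGGGaGGGattGGG

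**Figure D3:**
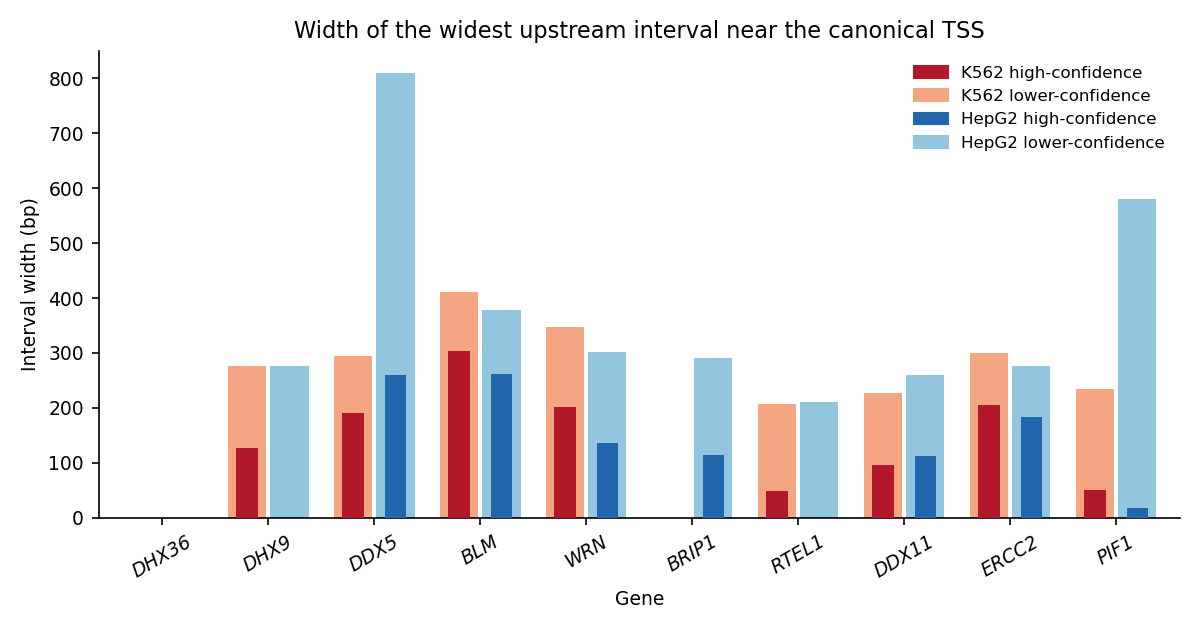
Width in bp of the widest interval near the canonical TSS of each gene, among those overlapping the 1 kb upstream of any of its TSSs. Broad pale bars are lower-confidence and narrow dark bars high-confidence intervals, K562 in reds and HepG2 in blues. The high-confidence bars run from 18 bp (PIF1, HepG2) to 304 bp (BLM, K562), and the tallest pale bars are DDX5 and PIF1 in HepG2, at 810 and 581 bp.

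Across the members the median width of a high-confidence interval was 158 bp in K562 and 135 bp in HepG2, beside 195 and 169 bp over the whole lists. The median GC content was 66.0% in K562, beside 70.3% for the list, and 65.6% in HepG2, beside 65.2%. High-confidence intervals made up a median 51.6% of their lower-confidence interval in K562 and 43.2% in HepG2, beside 62.0% and 53.1% over the lists. Of the K562 genes with a promoter interval 6 of 8 had one in HepG2 too, and of all such genes 67.7% did. From the HepG2 side it was 6 of 7, beside 79.2%.

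**Figure D4:**
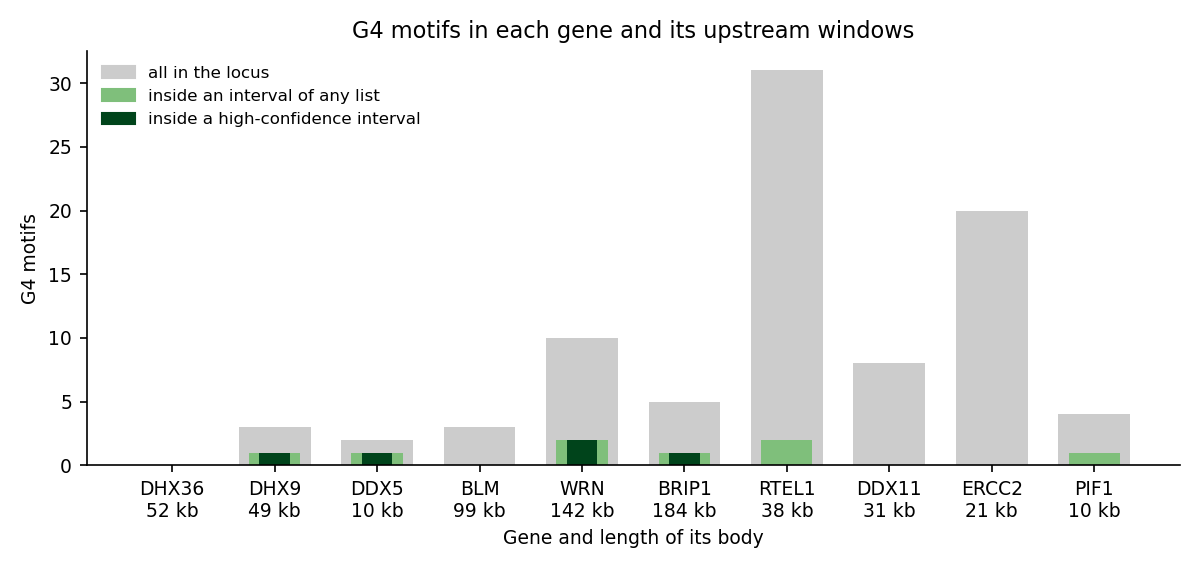
Number of G4 motifs in each gene body with its upstream windows (grey), number wholly inside an interval of any list (green) and wholly inside a high-confidence interval of either line (dark green). The tallest grey bars, RTEL1 (31) and ERCC2 (20), hold 2 and 0 motifs inside intervals, and the dark bars reach 2 in WRN and 1 in DHX9, DDX5 and BRIP1.

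Motifs were far more frequent than intervals. The 10 loci held 86 motifs, of which 5 lay wholly inside a high-confidence interval of either line and 8 wholly inside an interval of any list. The other 78 were not wholly inside any interval, and partial overlaps were not counted. DHX36 had no motif, and WRN had 2 of its 10 inside. A motif was found in 2 of the 8 K562 high-confidence intervals (DHX9 and WRN), beside 32.6% of the whole list, and in 3 of the 7 HepG2 ones (DDX5, WRN and BRIP1), beside 20.6%. With runs of at least 2 G the counts were 6 of 8 and 6 of 7, beside 89.6% and 79.6%. The paper reports that most high-confidence sites of both lines included sequences that formed G4s in a polymerase stop assay. The motif here is a sequence pattern only, so an interval without it is not shown to lack G4-forming sequence. In the 1 kb upstream of the canonical TSS 7 of 10 members held a motif, as did 46.9% of all protein-coding genes. Of these 7, the motif was within a high-confidence interval for DHX9, DDX5, WRN and BRIP1, and outside one for BLM, RTEL1 and PIF1.

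A list of 24 other helicase genes, of the RecQ, DEAH, DEAD and related families, was searched by the same rule. A promoter interval at high confidence was found for 11 in K562, 11 in HepG2 and 7 in both. The shares of all protein-coding genes were 34.6%, 29.6% and 23.4%. DNA2, DHX30, DHX37 and DDX1 were high-confidence in K562 and lower-confidence in HepG2, like DHX9, RTEL1 and 7.99% of all genes. DHX8, DHX15 and DDX41 were the reverse, and DHX33 was high-confidence in HepG2 without a K562 interval, like BRIP1 and 2.26% of all genes. RECQL, DHX16 and DDX21 had a lower-confidence interval in HepG2 and none in K562, and DDX3X had one in K562 alone. For the states of DHX8, DHX15 and DDX41, of RECQL, DHX16 and DDX21, and of DDX3X, the share of all protein-coding genes was not computed. Whether these genes are unusual in that respect is therefore not known. Another 2 had no upstream interval in any list, like DHX36 and 43.5% of all genes.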

How the data were processed

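Reads had been trimmed (cutadapt), aligned by BWA to hg19, filtered on mapping quality and freed of duplicates (Picard) by the authors, who called peaks in each replicate with MACS2 and merged the replicates with bedtools. The deposited values are interval starts and ends in bp. Here the 4 lists were compared with GENCODE release 44 lifted to GRCh37, and sequences were read from GRCh37. No interval ended past its chromosome, in a check that left out mitochondrial intervals. Intervals sharing at least 1 bp with a gene body or with the 1 kb upstream of any TSS were assigned to the gene, on one scale for all 20163 protein-coding genes. Sequence measures leave out the mitochondrial chromosome. The functions were checked on constructed data. Near copies of promoter intervals were sought with blastn 2.17.0 (hits of at least 100 bp). Scripts used Python 3.11.15 with pysam 0.24.0, numpy 2.4.6 and matplotlib 3.10.9, and the genome was indexed with samtools 1.23.1. All members are named with every interval they hold, and other helicase genes where their call differs between the lines. Members, lists and rules were chosen with earlier results of these data known. Each line has 1 merged list per threshold, so no test was run. Sequences of motifs in gene bodies are not reported here.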

Additional observations from a re-analysis of the deposited data

How the results depend on the processing

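Upstream windows of 500 bp or 2 kb, 1 kb on both sides of a TSS, TSSs of protein-coding transcripts only and interval centres inside the window left 8 genes in K562 and 7 in HepG2. Counting intervals of at least 50 bp gave 7 and 6. With the canonical TSS only, chosen after seeing the data, 6 and 6 were counted, since DDX11 in both lines and RTEL1 in K562 rest on internal TSSs. The lower-confidence lists gave 8 and 9. The share of all protein-coding genes was not computed under these alternative rules. The 34.6% (K562) and 29.6% (HepG2) of the 1 kb rule at high confidence therefore cannot be set beside these counts. In the loci the lower-confidence list raised the HepG2 count from 7 to 35 intervals, 24 of them in RTEL1, and the K562 count from 8 to 12. Counting only intervals nearest to a member's TSS left 8 in K562 and 6 in HepG2, where the WRN interval was nearer to PURG. Requiring 50% of both intervals lowered the shared promoters from 6 to 5, without PIF1. Runs of at least 2 G raised the intervals with a motif from 2 to 6 in K562 and from 3 to 6 in HepG2, while loops of up to 12 bases and intervals widened by 50 bp left 2 and 3. Leaving out a replicate could not be run, since the lists hold no replicates. No paired analysis was possible because replicates were merged before deposit and the results come from no test. An unknown depth limits every statement of absence.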
